A study of Mus musculus with 12 samples.

Results

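The 42 genes described here encode proteins of the 2 sides of the synapse: 28 belong to the presynaptic terminal, as vesicle proteins, calcium sensors, fusion proteins and components of the active zone, and 14 to the postsynaptic density and spine. They were chosen by symbol, with earlier results of these data known, from the 54532 genes of the count tables. All 42 had enough counts to be tested, among 18537 genes that did. RNA came from the striatum of C57BL/6J mice after transient middle cerebral artery occlusion (tMCAO), in which an artery that feeds the striatum is closed and later reopened, or after a sham operation. Of the 12 polyA+ libraries, 3 came from sham-operated mice given PBS, 3 from occluded mice given PBS (vehicle), and 6 from occluded mice given SN-011, which blocks STING, an adaptor protein of innate immunity. The SN-011 libraries form 2 arms of 3, titled SN011 and 3d-SN011, the second called the 3d arm here. Both arms carry the same treatment label, the prefix 3d is not explained, and no sham or vehicle library carries it. In the 3d arm against sham or vehicle, the drug and whatever 3d stands for therefore cannot be told apart. Between the 2 arms the treatment label is shared, but an effect of 3d alone and one that needs the drug cannot be told apart. Age, sex, the length of the occlusion and the drug dose are not given in the labels, nor whether each library is 1 animal, so each p-value reflects only how far these samples scatter, which may be technical.

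Transmitter is stored in synaptic vesicles, which are loaded by transporters, tethered by synapsins, primed at the active zone by Munc13 and RIM proteins, and fused with the membrane when synaptotagmin binds calcium and the SNARE proteins zip together. Across the cleft, the postsynaptic density holds glutamate receptors in place through layers of scaffold: PSD-95 and its relatives, the SAPAP proteins bound to them, and the SHANK and Homer proteins beneath. Most striatal neurons are GABAergic spiny projection neurons, and the glutamate terminals on them belong to axons whose cell bodies lie in cortex and thalamus, so a striatal sample holds the nuclei of the receiving side of those synapses and the nuclei of its own GABAergic terminals.

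Levels are CPM, counts scaled to a common library size after TMM, given library by library in the order of replicates 1 to 3, as the mean ± SD of a group (n = 3), or as RPKM, which divides the CPM by the kilobases of annotated exon. Fold changes are on the log2 scale with their standard error (SE), and a gene was called at an edgeR quasi-likelihood adjusted p under 0.05 over all 18537 genes. Totals ran from 15806076 to 18622053 counts per library. The members together took 1.81% to 2.06% of counts in the sham and vehicle libraries, 1.84%, 1.95% and 1.35% in the SN011 arm, and 0.50%, 0.610% and 0.758% in the 3d arm.

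The 3d arm stood apart for nearly every member. Compared with vehicle, 38 of 42 fell and 0 rose, in a comparison where 28.2% of all genes were called lower, 28.9% higher and 57.1% were called in either direction. The fall covered 25 of 28 presynaptic genes, with a median log2 fold change of -1.87, and 13 of 14 postsynaptic genes, with a median of -1.74, while the median over all genes tested was 0.0093. The 4 members that were not called were Syt11, Stx1a and Vamp1 on the presynaptic side and Shank1 on the postsynaptic side. In 39 members every 3d library lay below every vehicle library, which held for 30% of all genes. In bulk tissue, fewer neurons and less RNA per neuron cannot be told apart. These directions are under TMM scaling, and RLE scaling left the same 38 called lower. Scaled instead to 25 pan-neuronal genes, 21 members were lower and 6 higher, as described further on.

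**Figure D1:**
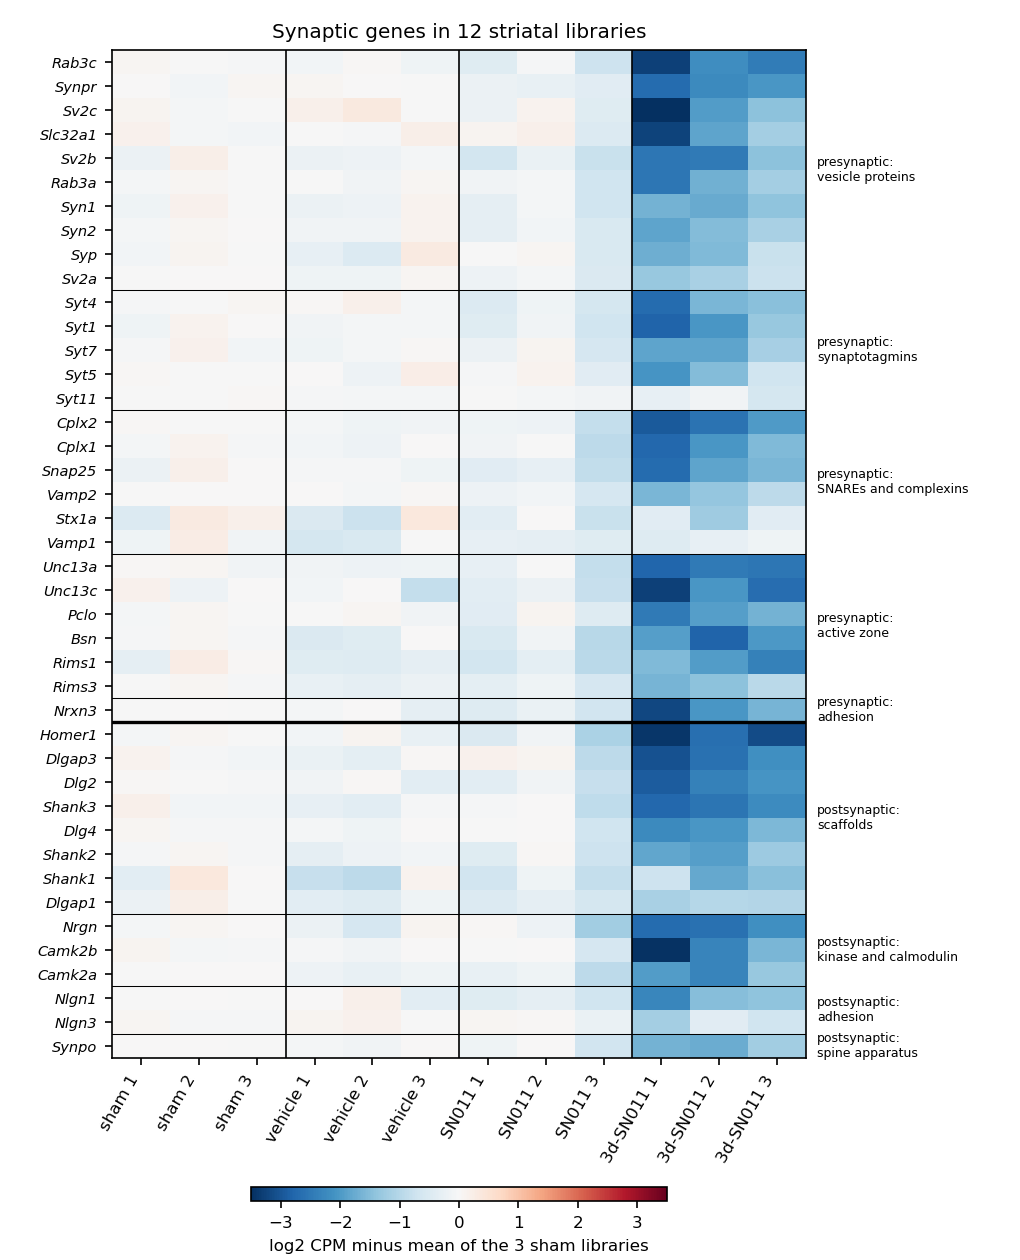
Level of each of the 42 genes (rows, by role) in each of the 12 libraries (columns, by group), as log2 CPM minus the mean of the 3 sham libraries (blue lower, red higher), under TMM scaling. The 3d columns are blue in nearly every row, with Syt11, Vamp1 and Stx1a palest, and SN011 replicate 3 is the bluest column outside the 3d arm; 9 members, Sv2a and Vamp2 among them, are above vehicle in the 3d arm when scaled to pan-neuronal genes and below it here.

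All 10 vesicle proteins fell against vehicle, with a median of -1.79. Rab3c, a small GTPase of synaptic vesicles (chromosome 13, 110054187 to 110280996), changed most among them. Its libraries stood at 428, 406 and 399.6 CPM in sham, 384, 426 and 367 in vehicle, 308, 399 and 251 in the SN011 arm and 42.2, 90.3 and 75.2 in the 3d arm. The 3d libraries lay far below the other 9, among which SN011 replicates 1 and 3 were lowest. Rab3c fell by 2.502 on the log2 scale (SE 0.25, edgeR adjusted p = 1.48e-05) and kept 16.8% of its sham mean. Rab3a, its close relative that cycles with the vesicle, went from 296 ± 20.5 CPM in vehicle to 92.3 ± 39.8, a change of -1.68. Synpr, synaptoporin, a membrane protein related to synaptophysin (chromosome 14, 13284780 to 13616340), stood at 162 ± 9.89 CPM in sham, 164 ± 3.97 in vehicle, 133 ± 9.91 in the SN011 arm and 32.9 ± 7.17 in the 3d arm. It dropped in all 3 libraries of the 3d arm, fell by 2.32 (SE 0.15) and had the smallest edgeR adjusted p of the members, 1.18e-05. Syp, synaptophysin, fell by 1.17 (SE 0.26, edgeR adjusted p = 0.00208) and was at 0.20 when scaled to the pan-neuronal genes.

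The SV2 proteins, membrane glycoproteins of the vesicle, split by paralog. Sv2a, the form found at most synapses (chromosome 3, 96181151 to 96195521), stood at 374, 387 and 382 CPM in sham, 343, 345 and 401 in vehicle, 336, 366 and 267 in the SN011 arm and 153, 175 and 227 in the 3d arm. Its 3d libraries were lower than every other library, yet the change of -0.97 (SE 0.16, edgeR adjusted p = 0.000270) was the smallest of the vesicle class and turned to 0.40 when scaled to the pan-neuronal genes. Sv2b (chromosome 7, 75114894 to 75309262) stood at 187, 249.8 and 215 CPM in sham, 187, 189 and 205 in vehicle, 139, 182 and 126 in the SN011 arm and 37.6, 38.5 and 80.0 in the 3d arm, and fell by 1.90 (SE 0.26). Sv2c, the paralog concentrated in the basal ganglia (chromosome 13, 95954594 to 96132577), stood at 298, 266 and 277 CPM in sham, 318, 354 and 275 in vehicle, 245, 306 and 211 in the SN011 arm and 23.8, 72.3 and 104 in the 3d arm. Its 3d libraries were the most uneven of the 3 paralogs, with replicate 1 far below the others, and the gene fell by 2.25 (SE 0.38, edgeR adjusted p = 0.000267). In every 3d library the log2 ratio of Sv2a to Sv2c exceeded that of every vehicle library, by 1.49 on average, and the ratio of Sv2a to Sv2b did so by 1.00. Each gave an exact two-sided permutation p = 0.1, the smallest that 3 libraries against 3 can give. Each later paralog ratio that did not overlap vehicle gave the same p by this test. How often ratios of other gene pairs fail to overlap was not computed, so a lack of overlap is description only.

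Slc32a1, the vesicular transporter that loads GABA and glycine, is the member that marks inhibitory terminals, the main local output of the striatum. It stood at 239.8 ± 20.9 CPM in sham, 249.97 ± 24.2 in vehicle, 232 ± 53.1 in the SN011 arm and 65.2 ± 39.5 in the 3d arm, where the libraries read 25.3, 66.1 and 104. The 3d libraries spread widely, replicate 1 lowest, but none reached the lowest of the other groups, and the gene fell by 1.94 (SE 0.37, edgeR adjusted p = 0.000632). The synapsins, phosphoproteins that tether vesicles in the reserve pool, moved alike. Syn1 (chromosome X, 20860511 to 20921004) stood at 336, 419 and 371 CPM in sham, 322, 328 and 405 in vehicle, 300.1, 353 and 229.7 in the SN011 arm and 119.6, 110.1 and 140.4 in the 3d arm, and fell by 1.51 (SE 0.17). Syn2 (chromosome 6, 115134902 to 115282006) stood at 245, 269 and 261 CPM in sham, 236, 237 and 279 in vehicle, 206, 243 and 177 in the SN011 arm and 71.1, 90.4 and 118 in the 3d arm, and fell by 1.43 (SE 0.18). Neither overlapped vehicle in the 3d arm, and their ratio overlapped between the groups, with a mean change of -0.05 in log2 Syn1 over Syn2. Part of the exons of Syn1, Syn2, Rab3a and Unc13a is shared with Araf, Timp4, Mpv17l2 and Colgalt1. Whether the counting used strand is unknown here, so reads from the shared bases cannot be told apart. Timp4, Mpv17l2 and Colgalt1 were at 64.4 ± 20.4, 25.3 ± 2.20 and 91.2 ± 9.70 CPM in the 3d arm. Their vehicle means were lower, at 26.8 ± 1.80, 10.5 ± 1.26 and 54.1 ± 1.38 CPM. Araf was at 107 ± 12.3 CPM in the 3d arm, below its vehicle mean of 155 ± 4.49.

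Of the 5 synaptotagmins, 4 fell. Syt1, the main calcium sensor of fast transmitter release, went from 853 ± 14.4 CPM in vehicle to 238 ± 116 in the 3d arm, a change of -1.85 (SE 0.29, edgeR adjusted p = 0.000161). Syt5 and Syt7, further calcium sensors of exocytosis, changed by -1.37 (SE 0.27) and -1.53 (SE 0.21). Syt4 and Syt11 are the pair whose first calcium-binding domain lacks a residue needed for calcium-dependent lipid binding, and they parted ways. Syt4 stood at 172, 176 and 188 CPM in sham, 185, 203 and 170.2 in vehicle, 129, 162 and 116 in the SN011 arm and 27.4, 58.7 and 64.1 in the 3d arm, and fell by 1.89 (SE 0.25, edgeR adjusted p = 5.06e-05). Syt11 (chromosome 3, 88744700 to 88775164) stood at 854, 854 and 901 CPM in sham, 839.5, 829 and 832 in vehicle, 857, 833 and 793 in the SN011 arm and 711, 804 and 566 in the 3d arm. The 3d libraries of Syt11 were below all vehicle libraries, replicate 2 narrowly, and the change of -0.27 (SE 0.14) was not called (edgeR adjusted p = 0.125; 0.0361 without 3d replicate 2, at -0.39). Scaled to the pan-neuronal genes Syt11 was at 1.14. The log2 ratio of Syt11 to Syt4 was 3.14 to 4.70 in the 3d arm and 2.03 to 2.29 in vehicle, with no overlap.

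Among the SNAREs and complexins, 4 of 6 fell, at a median of -1.58 for the class. Snap25, the plasma membrane SNARE that supplies a pair of helices to the fusion complex, went from 1061 ± 46.8 CPM in vehicle to 284 ± 102, a change of -1.90 (SE 0.25). Its partner Stx1a, syntaxin 1A (chromosome 5, 135023482 to 135051100), stood at 36.3, 62.1 and 56.4 CPM in sham, 35.4, 29.9 and 64.6 in vehicle, 38.7, 50.4 and 29.3 in the SN011 arm and 38.4, 21.3 and 38.4 in the 3d arm. The groups overlapped, the spread within sham and vehicle was as wide as any step between groups, and the difference of -0.41 (SE 0.32) was not called (edgeR adjusted p = 0.295), with 1.02 when scaled to the pan-neuronal genes.

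The vesicle SNAREs Vamp2 and Vamp1 also differed. Vamp2, synaptobrevin 2, the main vesicle SNARE of the forebrain (chromosome 11, 69088490 to 69092384), stood at 785, 802 and 806 CPM in sham, 800.0, 757 and 815 in vehicle, 708, 743 and 526 in the SN011 arm and 264, 310.5 and 421 in the 3d arm. It fell by 1.25 (SE 0.18, edgeR adjusted p = 9.30e-05), with no overlap, and was at 0.11 when scaled to the pan-neuronal genes. Vamp1, the form best known from spinal cord and brainstem (chromosome 6, 125215551 to 125245964), stood at 45.7, 60.1 and 46.7 CPM in sham, 33.2, 35.0 and 50.1 in vehicle, 41.1, 40.2 and 37.5 in the SN011 arm and 37.1, 41.0 and 45.6 in the 3d arm. The 3d values lay inside the vehicle range, and the difference was 0.06 (SE 0.16, edgeR adjusted p = 0.749), turning to -0.05 without vehicle replicate 1. The log2 ratio of Vamp1 to Vamp2 was -3.21 to -2.83 in the 3d arm and -4.59 to -4.02 in vehicle. The complexins, which clamp and then promote fusion, both fell. Cplx1 (chromosome 5, 108518554 to 108550024) stood at 411, 464 and 416 CPM in sham, 401, 383 and 435 in vehicle, 393, 422 and 229 in the SN011 arm and 63.9, 105 and 147 in the 3d arm, a change of -1.95 (SE 0.28). Cplx2 (chromosome 13, 54371349 to 54383917) stood at 2036, 1968 and 1962 CPM in sham, 1908, 1799.9 and 1836 in vehicle, 1785, 1771 and 1120.0 in the SN011 arm and 260.3, 333 and 503 in the 3d arm and kept 18.4% of its sham mean, against 24.4% for Cplx1. The log2 ratio of Cplx1 to Cplx2 was higher in each 3d library than in any vehicle library, by 0.36 on average.

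All 6 active zone genes fell, with a median of -1.94. Unc13a, Munc13-1, the priming factor of most glutamate synapses (chromosome 8, 71624417 to 71671757), stood at 613, 626 and 541 CPM in sham, 546, 528 and 532 in vehicle, 481, 583 and 334 in the SN011 arm and 86.7, 106 and 103 in the 3d arm. The 3d libraries were close together and far below the rest, and the gene fell by 2.44 (SE 0.19, edgeR adjusted p = 1.22e-05). Unc13c, Munc13-3, stood at 266, 215 and 244 CPM in sham, 227, 244 and 134 in vehicle, 186, 207 and 136 in the SN011 arm and 24.7, 58.9 and 37.5 in the 3d arm (chromosome 9, 73479422 to 73968966), and fell by 2.32 (SE 0.30). Vehicle replicate 3 was low for Unc13c, at the level of SN011 replicate 3, and the ratio of the 2 Munc13 genes overlapped between the 3d arm and vehicle.

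Rims1, which links the priming machinery to calcium channels (chromosome 1, 22286251 to 22805994), stood at 140.4, 207 and 179.6 CPM in sham, 129.9, 126 and 139 in vehicle, 112, 137 and 90.4 in the SN011 arm and 58.9, 45.0 and 33.5 in the 3d arm. Unlike most members it was lowest in 3d replicate 3, and it fell by 1.52 (SE 0.21). Rims3, a short RIM protein with a single C2 domain (chromosome 4, 120854816 to 120896579), stood at 115, 121 and 112 CPM in sham, 97.1, 94.1 and 99.9 in vehicle, 91.6, 105 and 77.8 in the SN011 arm and 37.7, 43.2 and 60.8 in the 3d arm. Its change of -1.04 (SE 0.16, edgeR adjusted p = 0.000166) was the smallest of the class and was 0.32 when scaled to the pan-neuronal genes. The giant scaffolds Bsn (Bassoon) and Pclo (Piccolo), which organise the active zone, changed by -1.92 (SE 0.25) and -1.96 (SE 0.20). Nrxn3, a presynaptic adhesion receptor that pairs with neuroligins (chromosome 12, 88722876 to 90334935), stood at 342, 345 and 340.0 CPM in sham, 328, 343 and 273 in vehicle, 248, 292 and 216 in the SN011 arm and 37.3, 83.9 and 109.9 in the 3d arm. It was even across sham, already uneven in vehicle, and fell by 2.03 (SE 0.29, edgeR adjusted p = 8.93e-05).

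On the postsynaptic side 7 of 8 scaffolds fell, at a median of -2.06. Homer1, which ties SHANK to metabotropic glutamate receptors and calcium stores (chromosome 13, 93299635 to 93405129), changed more than any other member. It stood at 400.3, 438 and 415 CPM in sham, 394, 444 and 349.9 in vehicle, 292, 385 and 192 in the SN011 arm and 39.2, 67.1 and 47.2 in the 3d arm. The highest 3d library was far below the lowest of the other 9, and the SN011 libraries ran from the vehicle range down to the lowest of them. Homer1 fell by 2.95 (SE 0.25, edgeR adjusted p = 1.22e-05), to 12.2% of its sham mean, and was still at -1.59 when scaled to the pan-neuronal genes. The count covers all Homer1 isoforms, the short activity-induced one included.

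Dlg4, PSD-95, the core scaffold of excitatory synapses, went from 989 ± 57.3 CPM in vehicle to 274 ± 66.7 in the 3d arm, a change of -1.85 (SE 0.21). Dlg2, PSD-93, its paralog, went from 583 ± 78.5 to 122 ± 34.7 CPM, a change of -2.26 (SE 0.23). The SAPAP proteins sit between PSD-95 and SHANK, and their 2 genes differed. Dlgap3, the SAPAP that is prominent in striatum (chromosome 4, 127169204 to 127237022), stood at 1067, 958 and 928 CPM in sham, 838, 778 and 1008 in vehicle, 1096, 1049.9 and 522 in the SN011 arm and 118, 160.4 and 222 in the 3d arm, and fell by 2.39 (SE 0.29). Dlgap1 (chromosome 17, 69969073 to 70821413) stood at 172, 232 and 199 CPM in sham, 154, 145 and 180.0 in vehicle, 143, 160.4 and 131 in the SN011 arm and 90.6, 99.0 and 98.1 in the 3d arm. Its 3d libraries were nearly equal and below all others, and its change of -0.74 (SE 0.13, edgeR adjusted p = 0.000519) was the smallest of the scaffolds and 0.66 when scaled to the pan-neuronal genes. The log2 ratio of Dlgap1 to Dlgap3 rose from between -2.48 and -2.43 in vehicle to between -1.18 and -0.38 in the 3d arm, a mean step of 1.70.

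The 3 SHANK genes, master scaffolds of the postsynaptic density, were graded. Shank3, the paralog most tied to striatal synapses (chromosome 15, 89499623 to 89560261), stood at 787, 659 and 655 CPM in sham, 573, 544 and 676 in vehicle, 684, 709.7 and 379 in the SN011 arm and 103, 119.6 and 152 in the 3d arm, a change of -2.26 (SE 0.23). Shank2 (chromosome 7, 144001928 to 144424494) stood at 169, 186 and 172 CPM in sham, 142, 156 and 164 in vehicle, 132, 179.6 and 106 in the SN011 arm and 50.05, 46.2 and 72.2 in the 3d arm, a change of -1.46 (SE 0.20). Shank1 (chromosome 7, 44310253 to 44360572) stood at 189.7, 314 and 246 CPM in sham, 139, 129 and 265 in vehicle, 155, 221 and 136 in the SN011 arm and 149, 70.0 and 88.2 in the 3d arm. For Shank1 the 3d arm overlapped vehicle, with 3d replicate 1 above vehicle replicates 1 and 2, and the difference of -0.79 (SE 0.33) just missed the threshold (edgeR adjusted p = 0.0540). It was 0.67 when scaled to the pan-neuronal genes and -0.40 without vehicle replicate 3. It was called by DESeq2 (adjusted p = 0.0355) and by edgeR with no filter on low counts (-0.81, adjusted p = 0.00610) or without vehicle replicate 1, vehicle replicate 2 or 3d replicate 1 (adjusted p = 0.0469, 0.0365 and 0.0100). The log2 ratio of Shank1 to Shank3 was higher by 1.48 in the 3d arm than in vehicle and that of Shank2 to Shank3 by 0.79, both with no overlap, whereas that of Shank1 to Shank2 overlapped.

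The kinase and calmodulin genes all fell. Nrgn, neurogranin, which holds calmodulin in spines (chromosome 9, 37544492 to 37552904), stood at 1139.8, 1252 and 1218 CPM in sham, 1038, 806 and 1284 in vehicle, 1241, 1062 and 522 in the SN011 arm and 187, 197 and 269.9 in the 3d arm. The vehicle and SN011 libraries were uneven, SN011 replicate 3 most of all. That library, at 522 CPM, lay between the other vehicle and SN011 libraries and the 3d arm, and none reached the 3d arm. Nrgn fell by 2.26 against vehicle (SE 0.29, edgeR adjusted p = 4.26e-05). Camk2a and Camk2b encode the main subunits of the calcium and calmodulin kinase that potentiates glutamate synapses. Camk2a stood at 2012, 2088 and 2049.9 CPM in sham, 1802, 1723 and 1862 in vehicle, 1699, 1831 and 1079.8 in the SN011 arm and 526, 417 and 822 in the 3d arm, a change of -1.61 (SE 0.25). Camk2b (chromosome 11, 5969644 to 6066362) stood at 1408, 1252 and 1282 CPM in sham, 1277, 1195 and 1316 in vehicle, 1298, 1313 and 868 in the SN011 arm and 118, 264 and 434 in the 3d arm, a change of -2.21 (SE 0.35). Their ratio separated the 3d arm from vehicle but overlapped sham.

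The neuroligins, postsynaptic partners of the neurexins, both fell. Nlgn1, mainly of excitatory synapses (chromosome 3, 25426215 to 26332460), stood at 81.2, 81.6 and 81.3 CPM in sham, 81.5, 92.1 and 63.1 in vehicle, 61.1, 64.8 and 50.4 in the SN011 arm and 16.7, 29.1 and 30.7 in the 3d arm, a change of -1.63 (SE 0.21). Nlgn3, found at both kinds of synapse (chromosome X, 101299168 to 101325963), stood at 69.7, 64.7 and 63.9 CPM in sham, 71.0, 72.9 and 65.4 in vehicle, 69.1, 68.0 and 56.2 in the SN011 arm and 28.8, 50.2 and 40.8 in the 3d arm. It kept 60.4% of its sham mean, and its change of -0.81 (SE 0.17, edgeR adjusted p = 0.00120) became 0.55 when scaled to the pan-neuronal genes. Synpo, synaptopodin, an actin-binding protein of the spine apparatus, stood at 236, 234 and 229.8 CPM in sham, 224, 215 and 235 in vehicle, 208, 235 and 145 in the SN011 arm and 73.8, 69.8 and 100.2 in the 3d arm. It fell by 1.47 (SE 0.18), with the 3d libraries close together.

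**Figure D2:**
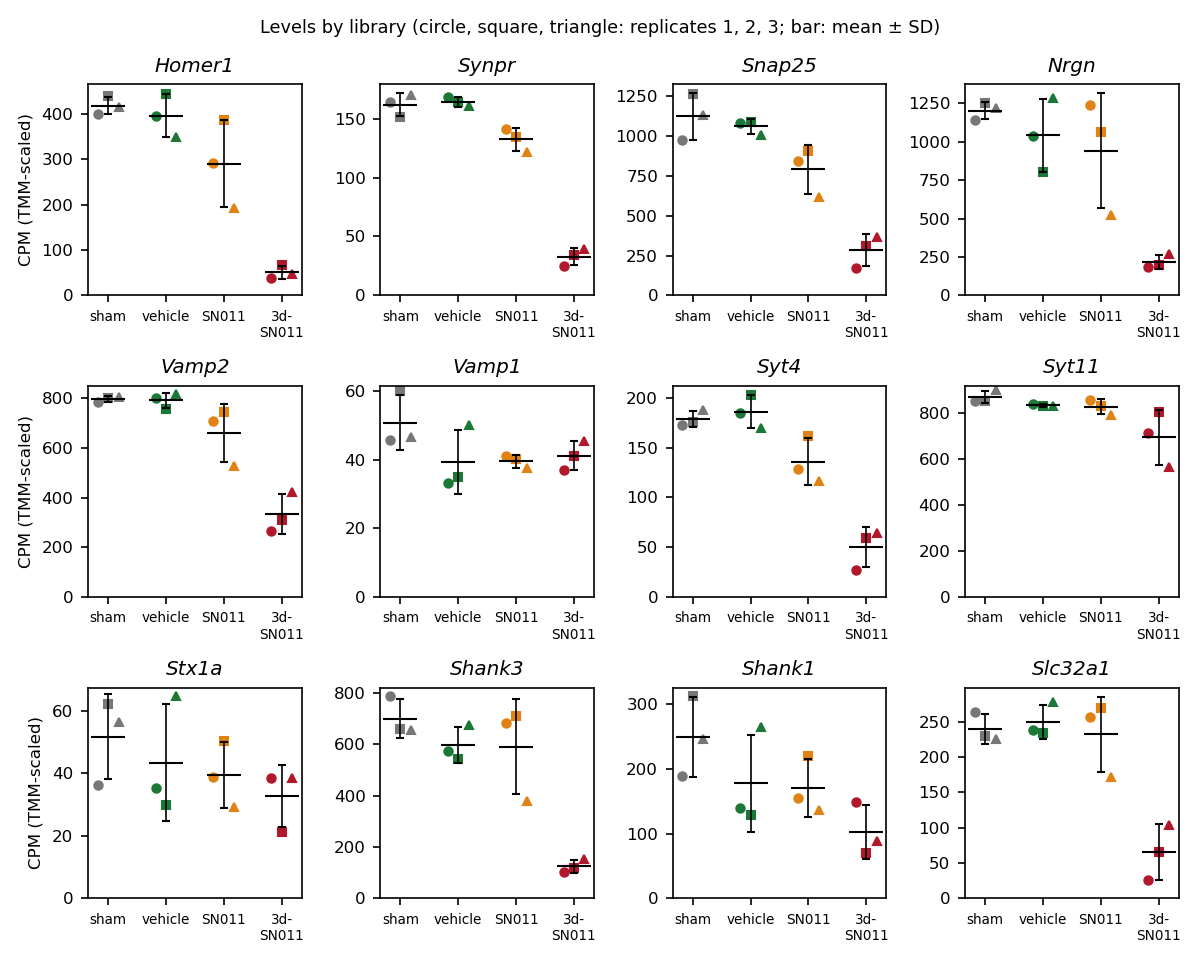
Level in CPM (vertical axis, linear from 0, TMM-scaled) of 12 members in the 4 groups (horizontal axis), each library a point and each group's mean ± SD a bar (n = 3). Homer1, Synpr, Snap25, Nrgn, Syt4, Shank3 and Slc32a1 drop in the 3d arm, as does Vamp2, which is at 0.11 against vehicle when scaled to pan-neuronal genes, while Vamp1, Stx1a and Shank1 overlap vehicle and Syt11 lies just below it.

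The 3d arm was also compared with sham and with the other SN-011 arm. These comparisons share the 3d libraries with the one above, so their values are given side by side and add no independent support. Against sham, 39 of 42 members fell (25 presynaptic, 14 postsynaptic; median -1.90), where 27.9% of all genes were called lower and 57.6% in either direction. In 41 members every 3d library lay below every sham library, which held for 31.5% of all genes. Shank1 was called here, at -1.29 (SE 0.33, edgeR adjusted p = 0.00504). Syt11, Stx1a and Vamp1 stood at -0.33, -0.66 and -0.30 and were not called (edgeR adjusted p = 0.0635, 0.0936 and 0.129). Syt11 was called there by DESeq2, by limma voom and by edgeR without 3d replicate 2 (adjusted p = 0.0229, 0.0481 and 0.0186), and Stx1a by edgeR with no filter or without sham replicate 1 (adjusted p = 0.0213 and 0.0492). Against the SN011 arm, 38 fell (25 presynaptic, 13 postsynaptic; median -1.46), where 22.9% of all genes were called lower and 46.4% in either direction, and 38 did not overlap, which held for 25.7% of all genes in that direction. The members with the largest changes were Homer1 at -2.503, Dlgap3 at -2.41, Shank3 at -2.24 and Unc13a at -2.24, and the 4 not called were Syt11, Stx1a, Vamp1 and Shank1, as against vehicle. Of these, edgeR called Shank1 with no filter or without 3d replicate 1 (adjusted p = 0.0136 and 0.0177) and Syt11 without 3d replicate 2 (adjusted p = 0.0487). Scaled to the pan-neuronal genes, 19 members were lower and 6 higher against sham, and 17 lower and 6 higher against the SN011 arm.

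A comparison with a set of neuronal transcripts asks which members changed more or less than that set. It is not confined to neurons: in bulk tissue a member's counts also hold any reads from glia, whose part was not tested. Libraries were therefore also scaled to 25 genes used by most neuron types (Rbfox3, Map2, Tubb3 and others, none of them a member), of which 21 fell and 0 rose against vehicle at a median of -1.30. Under TMM scaling these 25 genes ran from -3.25 to -0.15, a spread that the SE and calls of the members on this scale leave out. On this scale the median of all genes rose to 1.39, so a member at 0 here is well below the typical gene. Against vehicle, 21 members were then lower and 6 higher, at a median of -0.49. The lower ones were led by Homer1 at -1.59, Rab3c at -1.16, Unc13a at -1.06 and Dlgap3 at -1.04, and held Cplx2, Unc13c, Synpr, Sv2c, Dlg2 and Camk2b between -0.99 and -0.91. The higher ones were Vamp1 at 1.45, Syt11 at 1.14, Stx1a at 1.02, Dlgap1 at 0.66, Nlgn3 at 0.55 and Sv2a at 0.40. The same 6 genes were called higher against sham and against the SN011 arm on this scale, with the 3d libraries shared.

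**Figure D3:**
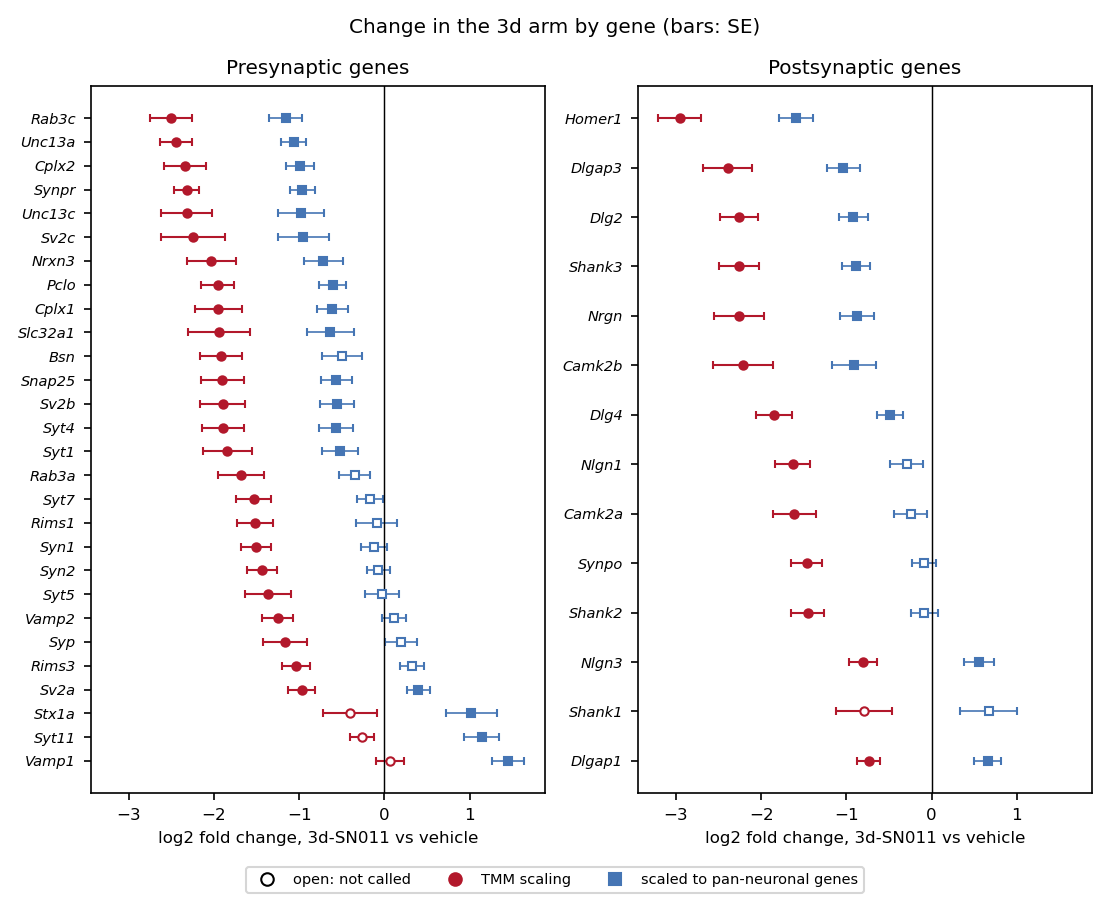
Log2 fold change of the 3d arm against vehicle (horizontal axis, bars SE) for each presynaptic and postsynaptic gene (rows, sorted by the TMM value), under TMM scaling (red circles) and scaled to the pan-neuronal genes (blue squares); open symbols were not called. The TMM values run from -2.95 for Homer1 to 0.06 for Vamp1, and the scaling moves all of them up without much change of order, so that Syp, Sv2a, Syt11, Stx1a, Vamp2, Rims3, Dlgap1, Shank1 and Nlgn3 turn from below 0 to above it.

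Promoter sequences are shown for 5 genes that mark the ends of this range or carry the motifs searched: Homer1 and Synpr, which fell steeply, Syn1, a standard neuronal promoter, and Vamp1 and Stx1a, which were not called. Sequences are from RefSeq on GRCm38.p6 and run 5′ to 3′ along the gene's strand up to the base before the start, less any bases inside an exon of the GENCODE M21 annotation. The Homer1 window (chr13:93303507-93303756, plus strand) lies inside the annotated gene but outside its exons. The others are Synpr (chr14:13284530-13284779, plus), Syn1 (chrX:20921005-20921168, minus), Vamp1 (chr6:125215331-125215550, plus) and Stx1a (chr5:135023232-135023481, plus). Capitals mark TGACGT (core of the cyclic AMP response element, bound by CREB), CAGCACC (part of the RE1 element, bound by REST) and GGGCGG (GC box, bound by Sp1), each on either strand.
Homer1: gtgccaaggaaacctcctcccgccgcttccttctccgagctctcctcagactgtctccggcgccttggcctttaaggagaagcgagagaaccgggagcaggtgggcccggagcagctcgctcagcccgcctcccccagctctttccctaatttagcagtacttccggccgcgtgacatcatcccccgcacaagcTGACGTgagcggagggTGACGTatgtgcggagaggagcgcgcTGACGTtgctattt
Synpr: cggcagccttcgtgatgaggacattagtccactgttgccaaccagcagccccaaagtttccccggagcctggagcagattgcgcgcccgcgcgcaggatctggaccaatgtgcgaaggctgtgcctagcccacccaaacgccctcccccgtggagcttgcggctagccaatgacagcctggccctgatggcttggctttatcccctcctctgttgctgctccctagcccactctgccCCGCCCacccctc
Syn1: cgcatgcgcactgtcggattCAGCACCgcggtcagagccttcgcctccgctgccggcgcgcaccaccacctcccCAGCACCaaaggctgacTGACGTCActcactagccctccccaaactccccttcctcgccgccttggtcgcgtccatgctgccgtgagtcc
Vamp1: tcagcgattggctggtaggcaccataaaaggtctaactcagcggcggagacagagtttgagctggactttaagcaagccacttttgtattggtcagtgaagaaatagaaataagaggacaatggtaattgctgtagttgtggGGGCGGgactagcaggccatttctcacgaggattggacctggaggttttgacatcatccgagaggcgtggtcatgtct
Stx1a: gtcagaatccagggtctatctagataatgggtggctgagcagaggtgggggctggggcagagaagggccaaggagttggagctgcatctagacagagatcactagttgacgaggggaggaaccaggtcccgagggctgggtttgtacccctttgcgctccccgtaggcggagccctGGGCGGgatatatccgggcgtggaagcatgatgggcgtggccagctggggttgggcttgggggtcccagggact

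Homer1 holds 3 copies of TGACGT. Syn1 holds 1 palindrome that reads as TGACGT on both strands and 2 copies of CAGCACC, and Synpr, Vamp1 and Stx1a hold 1 GC box each. RefSeq promoters matched 32 of the 42 members (48 starts, with 250 bases before each), of which 29 were called lower against vehicle. TGACGT was found at 3 of the 48 starts (6.25%), those of Homer1, Rab3a and Syn1, and at 6.47% of all 32851 promoters. CAGCACC was found at 3 starts, of Nlgn1, Sv2c and Syn1, and at 5.73% of all promoters. GGGCGG was found at 21 starts (43.8%) against 32.7% of all promoters, and 18 of the 21 genes that hold it were called lower. The site of the EGR factors, GCGTGGGCG, which can overlap a GC box, was found at 2 starts, of Shank3 and Unc13a, and at 0.536% of all promoters. A match is a description of letters, and these shares carry no test.

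Markers of cell types also shifted in the 3d arm, in both directions. Against vehicle, all 12 microglia and macrophage genes were higher in the 3d arm (median 3.41), with a summed level of 398 to 479.6 CPM in vehicle and 4537 to 6308 in the 3d arm. Of 10 astrocyte genes 9 were higher (median 1.39; summed level 4691 to 5115 CPM against 11285 to 16245), as were 7 of 10 oligodendrocyte genes (0.74; 9347 to 11491 CPM against 16322 to 25078) and 6 of 6 precursor genes (1.06; 253 to 309 CPM against 497 to 688). Of 9 endothelial genes 5 were higher (0.34). The choroid plexus and ependyma list went the other way, with 6 of 8 genes lower and 1, Foxj1, higher (median -2.37; 1374 to 2781 CPM against 109 to 850.2), and 6 of 8 lower against the SN011 arm (-2.39). It also varied within sham, from 128 to 2567 CPM, and 1 of its genes was at 0 in 3d replicate 3. Among neurons, all 20 genes of striatal projection neurons fell (median -2.66), from 16586 to 17617 CPM in vehicle to 908, 3013 and 4104 CPM in the 3d replicates. Of 12 interneuron genes 6 fell (-0.73), and of 9 cortical neuron genes 0 fell and 1 rose (0.46; 65.4 to 395 CPM against 144 to 315). None of these neuronal and glial marker genes was at 0 in any library. The part of these shifts in the members' change was not tested. Within the 3d arm the order of libraries ran in parallel: the median of the members was -2.37, -1.93 and -1.43 over the sham mean in replicates 1, 2 and 3, that of projection neuron genes -4.39, -2.42 and -2.003, and that of the pan-neuronal genes -1.60, -1.30 and -1.25. Of the 42 members, 32 were lowest in replicate 1 of the arm and 32 were highest in replicate 3.

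**Figure D4:**
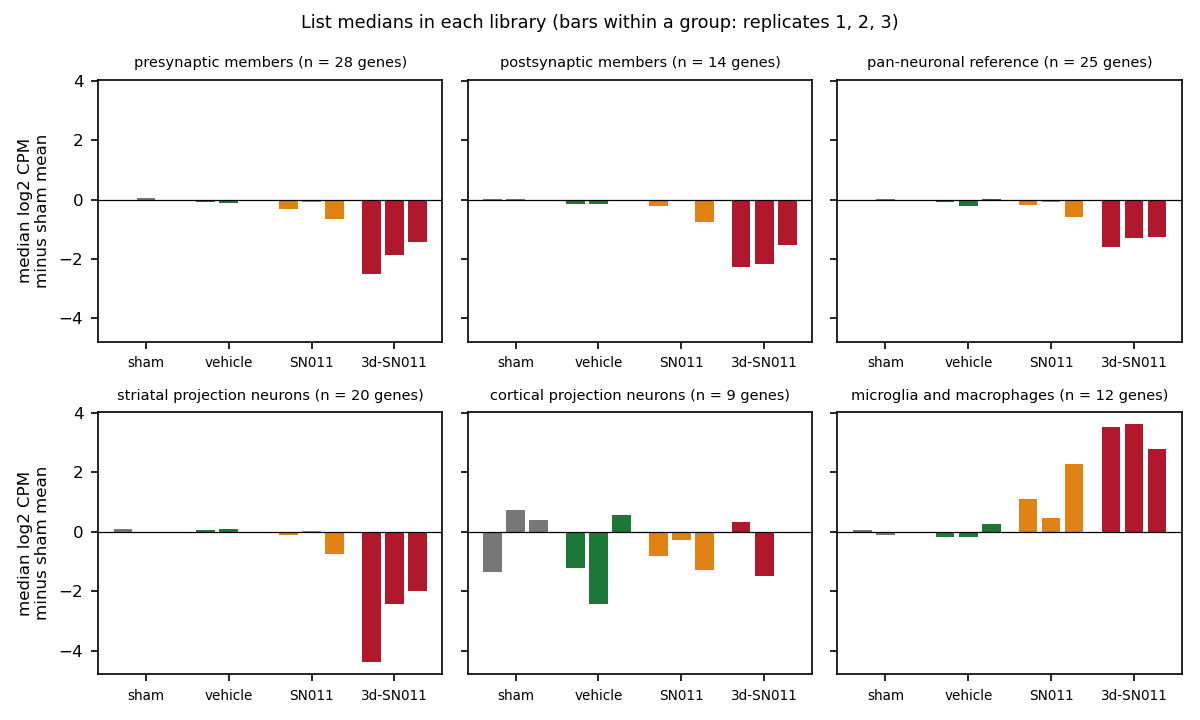
Median over the genes of a list of log2 CPM minus the sham mean (vertical axis), one bar per library in the 4 groups (horizontal axis), under TMM scaling. The members, the pan-neuronal genes and the projection neuron genes are lowest in 3d replicate 1, microglia and macrophage genes reach 2.81 to 3.63 in the 3d arm and 2.29 in SN011 replicate 3, and cortical neuron genes vary within every group.

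The cortical list varied by library in every group, at 124, 459 and 329 CPM in sham, 101, 65.4 and 395 in vehicle, 119, 203 and 133 in the SN011 arm and 315, 144 and 235 in the 3d arm. Shank1, Bsn and Rims1 had their highest library in the same replicate as the cortical list in 4 of 4 groups, and 13 further members did so in 3 groups. For Sv2c and Dlg2 the highest library was instead that of the projection neuron list in 4 of 4 groups. The same held in 3 groups for Slc32a1, Rab3c, Syt1, Syt4, Syt5, Snap25, Unc13c, Pclo, Nrxn3, Dlg4, Shank3, Camk2b, Nlgn1 and Synpo. The share over all genes was not computed, so these matches are not a trait of the members. Of the members that shared their highest library with the cortical list in 4 groups, Shank1 was not called against vehicle, whereas Bsn and Rims1 fell by 1.92 and 1.52. Of the other members not called, Stx1a shared it in 3 groups, Vamp1 in 2 and Syt11 in 0. Members were also correlated with the cortical list over the 12 libraries, as log2 deviations from group means. The correlation r was 0.91 for Stx1a, 0.90 for Shank1, 0.71 for Vamp1 and -0.12 for Syt11. Among members that fell, r ran from -0.68 for Unc13c to 0.76 for Dlgap1. With the projection neuron list, r was -0.07 for Stx1a, -0.42 for Shank1, 0.32 for Vamp1 and -0.27 for Syt11. Among members that fell it ran from -0.47 for Rims1 to 0.98 for Slc32a1. All of these but Syn1, Rims1, Bsn and Dlgap1 had a higher r with this list than with the cortical list. The part of cortical tissue or of projection neurons in the members' values was not tested.

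The other comparisons ask what the occlusion did without the drug and what SN-011 did to it in the SN011 arm, where no 3d library enters the contrast. The 3d libraries still share in the fit's estimate of spread. An edgeR fit of the 9 libraries without them also called 0 members in each comparison. It called 1 gene for vehicle against sham, 17 for SN011 against vehicle and 39 for SN011 against sham, where the main fit called 0, 3 and 21. Vehicle and sham differed little in these genes. No member was called between them by edgeR, where 0% of all genes were called, and 2, Vamp1 at -0.37 and Dlgap1 at -0.33, had an unadjusted p under 0.05. The median log2 fold change was -0.09 (-0.08 presynaptic, -0.16 postsynaptic), with 36 of 42 below 0. In 6 members every vehicle library lay below every sham library, in 0 above, where 6.29% of all genes lay below and 6.86% above without overlap: Rims1 at -0.42, Rims3 at -0.26, Camk2a and Shank2 at -0.19, Cplx2 at -0.11 and Syt11 at -0.06. Under the pan-neuronal scaling 17 of 42 were below 0 and the median was 0.03. DESeq2 and limma voom also called 0 members here.

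In the SN011 arm against vehicle, no member was called by edgeR, where 0.0162% of all genes were, and 1, Synpr at -0.31, had an unadjusted p under 0.05. The median was -0.20 (-0.22 presynaptic, -0.14 postsynaptic), with 40 of 42 below 0. It moved to -0.04 without SN011 replicate 3, with 26 of 42 below 0, and to -0.35 without SN011 replicate 2. Scaled to the pan-neuronal genes the median was -0.03, with 24 of 42 below 0. No microglia or astrocyte marker was called in this comparison, but all 12 microglia and macrophage genes were above 0 (median 1.51, 11 with an unadjusted p under 0.05; 606 to 2106 CPM in the SN011 arm against 398 to 479.6 in vehicle), as were all 10 astrocyte genes (median 0.54; 5407 to 9734 CPM against 4691 to 5115). Their part in the members' shift was not tested. In 7 members, all presynaptic, every SN011 library lay below every vehicle library, where 7.32% of all genes did: Synpr, Sv2b, Syt1, Syt4, Snap25, Vamp2 and Cplx2. The smallest adjusted p was 0.444, for Synpr, and the largest shift was Syt4 at -0.45 (SE 0.24). DESeq2 called 0 members and limma voom with quality weights 2, Syt4 at -0.49 (adjusted p = 0.0457) and Nlgn1 at -0.41 (adjusted p = 0.0486).

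Against sham, the SN011 arm had all 42 members below 0 at a median of -0.35, with 0 called by edgeR, where 0.113% of all genes were. It was -0.19 without SN011 replicate 3 and -0.46 without replicate 2. An unadjusted p under 0.05 was reached by 5: Dlgap1 at -0.47, Rims1 at -0.63, Nlgn1 at -0.47, Homer1 at -0.53 and Vamp1 at -0.36. In 21 members (16 presynaptic, 5 postsynaptic) the SN011 arm lay below sham without overlap, where 12.9% of all genes did. The smallest edgeR adjusted p was 0.146, for Dlgap1. DESeq2 called 1, Dlgap1 (adjusted p = 0.0456), and limma voom with quality weights 11. Scaled to the pan-neuronal genes, 24 of 42 were below 0 at a median of -0.04. The SN011 arm was not uniform: 39 of the 42 members had their lowest value outside the 3d arm in SN011 replicate 3, where the member median was -0.69 over the sham mean, against -0.30 and -0.09 in replicates 1 and 2. In that library the microglia and macrophage genes summed to 2106 CPM, against 774 and 606 CPM in replicates 1 and 2, and projection neuron genes had a median of -0.75 over the sham mean. The part of that library's cell types in the result was not tested.

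Per kilobase of exon, the most abundant member in sham was Nrgn at 828 RPKM, then Cplx2 at 404, Camk2a at 275, Dlgap3 at 218, Vamp2 at 209, Cplx1 at 197, Syt11 at 167 and Snap25 at 165. Dlgap3, Vamp2 and Cplx1 did not differ beyond their spread (SD 16.2, 2.98 and 13.5 RPKM), nor did Syt11 and Snap25 (SD 5.20 and 21.5). In the 3d arm Nrgn at 150.1 ± 31.0 and Syt11 at 133 ± 23.1 RPKM stood highest and did not differ beyond their spread, Syt11 having been at rank 7 in sham. Vamp2 at 87.1 ± 21.1, Camk2a at 78.8 ± 28.1 and Cplx2 at 74.2 ± 25.3 RPKM followed, within their spread of each other. Dlgap3 moved from rank 4 to 11, at 36.9 ± 11.6 RPKM, and Homer1 from rank 24 to 38 of 42, at 4.27 ± 1.20. Vamp1 was the lowest of all in sham and stood at 4.06 ± 0.419 RPKM in the 3d arm, rank 39, above Synpr, Pclo and Nlgn1.

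The wider synaptic repertoire followed the members. Of 53 other presynaptic genes, 39 fell and 2 rose against vehicle (median -1.36), and of 50 other postsynaptic genes, 39 fell and 4 rose (median -1.40), beside 28.2% of all genes called lower. The largest falls were Slc17a8, the vesicular glutamate transporter VGLUT3, from 19.5 ± 2.55 to 2.40 ± 1.78 CPM (-3.01, SE 0.44), and Syt2, a fast calcium sensor, from 62.4 ± 3.87 to 8.996 ± 4.43 CPM (-2.80, SE 0.36). Postsynaptic genes with the largest falls were Pcp4, a calmodulin regulator, from 85.2 ± 6.41 to 11.5 ± 5.98 CPM (-2.89), and Lrrc7, densin-180, from 105 ± 7.39 to 15.0 ± 3.99 CPM (-2.81). The 6 genes that rose hold paralogs of members that fell. Homer3, paralog of Homer1, went from 7.41 ± 0.718 to 24.6 ± 2.47 CPM (1.73, SE 0.23, edgeR adjusted p = 6.02e-05), and Camk2d, paralog of Camk2a and Camk2b, from 33.5 ± 1.76 to 77.7 ± 9.10 CPM (1.22, SE 0.15). Rab3d, paralog of Rab3a and Rab3c, went from 6.03 ± 1.23 to 17.96 ± 5.96 CPM (1.57, SE 0.26), and Syt17 from 6.62 ± 3.24 to 11.998 ± 3.18 CPM (0.86, edgeR adjusted p = 0.0482). Camk2g, a further subunit of the kinase, rose by 0.66 and Tanc1, a scaffold that binds PSD-95, by 0.65. The cell types behind these values were not tested.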

How the data were processed

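Striatal polyA+ RNA was sequenced as paired reads of 2X150 bases in 12 libraries, per the labels' protocols. The submitters' processing notes name HISAT2, featureCounts and the build mm10. Their versions, the gene annotation and whether strand was used: not given in the sources used here. Each deposited table gives whole-number counts per Ensembl gene for 1 library, with no normalization by the authors visible in the values. The tables hold 54532 genes, of which 54409 had a symbol, and 0 rows named no gene.

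The main test was edgeR 4.0.16 in R 4.3.3: filterByExpr by group (minimum count 10; 18537 genes left), TMM scaling, and one quasi-likelihood fit of all 12 libraries with group as the only term. P-values were adjusted by Benjamini-Hochberg over all genes tested, and calls made under 0.05. The SE is the size of the log2 fold change over the square root of F. Exon lengths and positions come from GENCODE M21 (GRCm38), counted from 1, and every member is protein-coding there. No 2 libraries of a group agreed within sampling noise, so all were kept as separate samples. The script was tested on simulated data. Ratios of paralogs were compared by exact two-sided permutation tests.

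The members and lists were chosen with earlier results of these data known. All members may be named; library by library are given, in each role, the members with the largest and smallest change against vehicle, those not called there, and paralog sets. From the other synaptic genes, the 2 largest rises and 2 largest falls of each list are named; Camk2g and Tanc1 were added after their values were seen. Alternatives were RLE scaling, no filter, a replicate block, pan-neuronal scaling, a test against a 1.5-fold change, fits of fewer libraries, DESeq2 1.42.0, limma 3.58.1 voom with quality weights, and leaving out each replicate. Plots used matplotlib 3.10.9 (Python 3.11.15).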

Additional observations from a re-analysis of the deposited data

How the results depend on the processing

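With each replicate left out in turn, 0 members were called in the 3 comparisons among sham, vehicle and SN011, 38 to 39 between the 3d arm and vehicle, 39 to 40 between the 3d arm and sham, and 38 to 39 between the 3d and SN011 arms. In the comparisons without the 3d arm, voom with quality weights called 2 members for SN011 against vehicle and 11 for SN011 against sham (Syn2, Sv2b, Syt4, Snap25, Rims1, Rims3, Bsn, Dlgap1, Shank2, Homer1 and Nlgn1), no filter called 1 there (Rims1) and DESeq2 1 (Dlgap1). Scaled to the pan-neuronal genes, 27, 25 and 23 members were called for the 3d arm against vehicle, sham and SN011, against 38, 39 and 38. A test against a 1.5-fold change left 36, 38 and 35, losing Dlgap1 and Nlgn3 against vehicle.

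Values that changed sign under the pan-neuronal scaling were, against vehicle, Syp 0.20, Sv2a 0.40, Syt11 1.14, Stx1a 1.02, Vamp2 0.11, Rims3 0.32, Dlgap1 0.66, Shank1 0.67 and Nlgn3 0.55. Against sham they were Syn2 0.0030, Syp 0.19, Sv2a 0.44, Syt5 0.12, Syt11 1.20, Stx1a 0.87, Vamp1 1.20, Vamp2 0.21, Rims3 0.18, Dlgap1 0.44, Shank1 0.29 and Nlgn3 0.75. Against SN011 they were Syn2 0.00071, Syp 0.033, Sv2a 0.37, Syt11 0.94, Stx1a 0.96, Vamp2 0.19, Rims3 0.21, Dlgap1 0.59, Shank1 0.53 and Nlgn3 0.48. This scaling by construction sets the geometric mean of the pan-neuronal genes, which fell, to no change. Vamp1, near 0 and not called, ranged from -0.053 to 0.27 against vehicle with 1 replicate left out, below 0 without vehicle replicate 1, vehicle replicate 2 or 3d replicate 3. Against SN011 it was -0.015 with voom and -0.0225 to 0.13 with 1 replicate left out, below 0 without 3d replicate 3.

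The replicate numbers do not pair the libraries: of 18 same-numbered pairs, 4 had deviations correlated above 0.1 (range -0.39 to 0.31 over 10862 genes). The fit with the replicate number as a block called 0, 0, 0, 38, 39 and 38 members in the 6 comparisons, as without it. Counts over all genes moved more: for SN011 against vehicle 3 genes were called, against 19 with the replicate block, 443 by DESeq2 and 1179 by voom. With 3 libraries a group, and SN011 replicate 3 apart from its group, small changes outside the 3d arm are poorly resolved.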

Other observations

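Genes of the transmitter systems, taken from the list of other presynaptic genes and chosen after their values were seen, encode proteins of terminals. Some terminals belong to local cells and others to incoming axons with cell bodies outside the striatum. The values are RNA levels of the dissected tissue and do not measure terminals. Gad1 and Gad2, which make GABA, went from 574 ± 34.0 and 531 ± 69.6 CPM in vehicle (n = 3) to 123 ± 57.0 and 149 ± 80.1 CPM in the 3d arm, changes of -2.22 and -1.84 on the log2 scale (edgeR adjusted p = 6.29e-05 and 0.000670). Slc18a3, the vesicular acetylcholine transporter of cholinergic interneurons, fell by 1.80, from 13.6 ± 1.92 to 3.89 ± 2.66 CPM. Slc17a7, the vesicular glutamate transporter of cortical neurons, did not pass the test (0.15, SE 0.88, edgeR adjusted p = 0.896). It ranged from 14.6 to 253 CPM within vehicle and from 33.5 to 188 CPM within the 3d arm. Slc17a6, the vesicular glutamate transporter of thalamic neurons, was low, at 0.250 to 3.73 CPM in vehicle and 0.269 to 1.19 CPM in the 3d arm, and did not pass the test either (-1.03, SE 0.83, edgeR adjusted p = 0.311). Slc18a2, the vesicular monoamine transporter, whose striatal terminals belong mainly to midbrain neurons, went from 7.32 ± 1.21 to 4.77 ± 1.46 CPM (-0.61, SE 0.24, edgeR adjusted p = 0.0401).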
